A study of Mus musculus with 7 samples.

Results

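Syn-only regions are stretches of open chromatin found in each of 3 libraries from syngeneic marrow recipients and in none of 4 libraries from allogeneic recipients. They were chosen by presence of a peak: peaks of the 7 lists on chromosomes 1 to 19 and X were joined wherever they shared 1 bp or more. This gave 103809 merged regions, and 1051 of these (1.01%) held a peak in all 3 Syn and no Allo library. The mirror set, Allo-only regions with a peak in all 4 Allo and no Syn library, held 1183 (1.14%). Since the choice used the contrast of Syn with Allo, the difference in presence at these regions is a description, and no test of it is given.

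The measurement was Omni-ATAC-seq, in which the Tn5 transposase cuts open DNA and inserts sequencing adapters there. All recipients were female B6-GFP-Lgr5 mice of 8 to 12 weeks that were lethally irradiated before transplantation. Syn recipients (3 libraries) received syngeneic B6-GFP-Lgr5 marrow and Allo recipients (4 libraries) BALB/c marrow. Each library held 50000 sorted Lgr5+ intestinal stem cells pooled from 3 to 4 mice 7 days after transplantation, so a value stands for a pool, and both groups carry the irradiation, with no unirradiated group among these libraries. The GFP reporter of Lgr5 marks the cycling stem cells of the crypt base.

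Open chromatin in a cell falls into promoters, which lie at gene starts and are open in most cell types, and distal elements such as enhancers, which lie within or between genes and vary more by cell type and state. In the intestinal epithelium, distal elements carry binding sites for factors such as HNF4, CDX2, GATA4 and TCF/LEF proteins. A peak tells that a site was accessible in enough of the pooled cells to pass the caller's threshold. It does not tell which gene the site acts on, and in a pool fewer cells with an open site and a less open site in each cell cannot be told apart.

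The labelled cell type was checked at its marker genes. Lgr5, Olfm4, Ascl2 and Smoc2 had a peak within 1 kb of a gene end in 7 of 7 libraries, while Ptprc and Cd3e (leukocytes) and Pecam1 (endothelium) had such a peak in 0. Col1a1, a collagen gene of stromal cells, had a gene-end peak in all 7. The Syn lists held 71925 to 76438 peaks and the Allo lists 62977 to 88861. Read depth is unknown, and its stand-in is the background pileup, the lowest expected number of stacked fragments under a peak. It was 4.93, 5.34 and 4.65 in Syn 1 to 3 and 4.46, 4.46, 3.28 and 3.05 in Allo 1 to 4. The Allo libraries were thus split, with Allo 1 and Allo 2 close to Syn 3. Allo 3 and Allo 4, whose peaks are named by another scheme, had the lowest background and the longest lists (88861 and 81719 peaks). The median pileup at summits was 44, 46 and 46 in Syn 1 to 3 and 40, 41, 40 and 38 in Allo 1 to 4, so the groups did not overlap in either stand-in. The part of these differences in the Syn-only set was not tested.

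Few Syn-only regions touched a promoter, and sequences are given below for some of the best ranked of these. Of the 1051 regions, 18 (1.71%) overlapped a RefSeq promoter window, which runs from 250 bases before to 50 after a gene's start (GRCm38.p6, the mm10 build), against 1.94% of Allo-only regions and 22.1% of the regions shared by all 7 libraries. They touched windows of 9 protein-coding and 10 other genes. The 250 bases before the start are shown for 4 of the windows that lay mostly inside a Syn-only region: C9, a terminal complement protein (chr15:6445096-6445345, plus strand), Sec14l3, a lipid-binding protein of the Sec14 family (chr11:4064603-4064852, plus strand), and the long non-coding RNA genes Gm11337 (chr13:23804641-23804890, minus strand) and Gm45889 (chr7:142282964-142283213, plus strand). Each is read 5′ to 3′ on the gene's strand, and capitals mark matches to a searched motif on either strand.
C9: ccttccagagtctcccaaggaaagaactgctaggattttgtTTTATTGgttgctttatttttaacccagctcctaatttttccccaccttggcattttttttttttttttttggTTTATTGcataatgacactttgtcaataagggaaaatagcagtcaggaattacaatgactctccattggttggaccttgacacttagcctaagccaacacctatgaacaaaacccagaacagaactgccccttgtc
Sec14l3: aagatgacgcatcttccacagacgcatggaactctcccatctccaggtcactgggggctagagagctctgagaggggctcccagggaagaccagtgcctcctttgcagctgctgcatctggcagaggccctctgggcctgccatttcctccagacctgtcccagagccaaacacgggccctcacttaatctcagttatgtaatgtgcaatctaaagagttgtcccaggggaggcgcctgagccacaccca
Gm11337: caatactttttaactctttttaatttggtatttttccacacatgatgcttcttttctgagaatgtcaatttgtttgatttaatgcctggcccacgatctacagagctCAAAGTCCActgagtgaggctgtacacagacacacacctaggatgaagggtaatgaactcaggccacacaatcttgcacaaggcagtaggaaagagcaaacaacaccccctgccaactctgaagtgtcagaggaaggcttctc
Gm45889: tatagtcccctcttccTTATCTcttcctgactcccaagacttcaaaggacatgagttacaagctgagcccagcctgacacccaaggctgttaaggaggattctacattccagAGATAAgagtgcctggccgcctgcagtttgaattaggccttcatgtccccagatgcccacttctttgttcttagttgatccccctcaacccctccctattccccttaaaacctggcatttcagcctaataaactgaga

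The motifs were searched on both strands. They were TGANTCA for the stress-responsive factor AP-1, AGATAA for GATA factors, CTTTGAT for the Wnt effectors of the TCF/LEF family, CAAAGTCCA for HNF4, TTTATNG for the intestinal factor CDX2, CCGGAAGT for ETS factors, GAAANNGAA for the core of the interferon-stimulated element, and CACGTG for E-box proteins. The capitals in C9 are 2 matches to TTTATNG, a motif held by 10.9% of all 32619 promoter windows. Those in Gm45889 are 2 matches to AGATAA, which 11.2% of windows hold, and the capitals in Gm11337 are 1 match to CAAAGTCCA, which 0.478% of windows hold. Sec14l3 had no match to these 8 motifs. Other windows that lay mostly inside a Syn-only region are not shown. Among these, Gm32995 (287 of 300 bases inside), Gm35853 and Septin12 (300 of 300) had no match, and Gm52736 (300 of 300) had 2. Gm40438 (270 of 300) had 1 match to CTTTGAT, and Gm40444 (160 of 300) had 1 to AGATAA. Matches are letters in a window, not bound sites. The windows that Syn-only regions overlapped (21, counting alternative starts) had a median GC content of 49%, against 53% over all windows. The C9 window lay inside its Syn-only region over all of its 300 bases. That region had pileups of 35, 32 and 31 in Syn 1 to 3 and lay 57.8 kb from the nearest shared region. C9 had 3 merged regions, of which 1 was Syn-only and 1 was Allo-only, so the gene does not stand on one side.

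Syn-only regions were weak peaks beside shared regions, as were, to a lesser degree, Allo-only regions. The strength of a region in a library is given here as the rank percentile of its strongest peak by the deposited −log10 p, from 0 (lowest of the library) to 100. Its median over the members was 16.4 in Syn 1, 17.3 in Syn 2 and 19.5 in Syn 3, whereas shared regions had medians of 64.7, 65.6 and 66.8. Allo-only regions had medians of 20.4, 22.9, 42.5 and 31.1 in Allo 1 to 4. In pileup the members' medians were 23, 25 and 25, and those of shared regions 58, 62 and 63. The medians of the members' deposited −log10 q were 6.01, 6.51 and 7.31. Averaged over the 3 Syn libraries, the rank percentile ranged from 1.35 to 62.3, with a median of 17.8 and quartiles of 11.8 and 25.5. In 6 members the mean exceeded 50, and 1 member exceeded 50 in each Syn library.

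**Figure D1:**
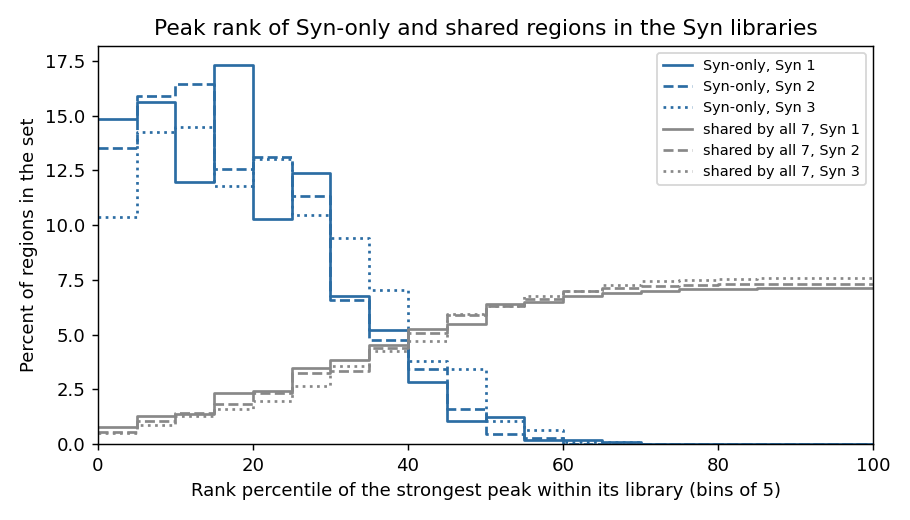
Share of Syn-only regions (blue) and of regions shared by all 7 libraries (grey) in each bin of 5 rank percentiles of the strongest peak, for Syn 1 (solid), Syn 2 (dashed) and Syn 3 (dotted). The Syn-only curves lie at the left with medians of 16.4 to 19.5, and the shared curves rise to the right with medians of 64.7 to 66.8.

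The Syn libraries ordered the members only loosely alike. Across the 1051 members, Spearman's rho of the rank percentiles was 0.36 between Syn 1 and Syn 2, 0.41 between Syn 1 and Syn 3 and 0.43 between Syn 2 and Syn 3. Across the 50324 shared regions the values were 0.94, 0.95 and 0.95. These are descriptions over regions of the same libraries, and the narrow range of ranks among the members bears on them. Summits of the 3 libraries spread over a median of 73 bp within a member, against 37 bp within a shared region. In 64.9% of members the 3 summits fell within 100 bp, and in 81.3% of shared regions.

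At the edge of the rule, 544 members (51.8%) had a −log10 q under 5 in at least 1 Syn library, and 26 had 10 or more in all 3. Just outside the rule were 1627 regions with a peak in all 3 Syn and 1 Allo library. The extra library was Allo 2 in 967 of them, Allo 3 in 346, Allo 4 in 282 and Allo 1 in 32. Where Allo 2 was the extra library, the median over regions of the mean Syn rank percentile was 24.5, and the median rank percentile in Allo 2 itself was 15.4. A further 1588 regions had a peak in 2 Syn and no Allo library, and their missing library was Syn 1 in 719, Syn 2 in 552 and Syn 3 in 317. The number of Syn-only regions therefore moves with single libraries: it was 1785 without Syn 1, 1616 without Syn 2 and 2021 without Allo 2.

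Libraries that took no part in the choice give a measure whose outcome did not enter the choice. The merged regions themselves were built from the lists of all libraries, the left-out ones included. Their number and boundaries were therefore not independent of the left-out libraries, and the lists were not merged again without them. For each of the 12 pairs of 1 Syn and 1 Allo library, regions were chosen from the other 5 libraries (a peak in both other Syn and in none of the 3 other Allo libraries), which gave 1411 to 2981 regions, and the left-out libraries were then looked up. A peak was present in Syn 1 at 61.7% of the regions chosen without it, in Syn 2 at 67.9% and in Syn 3 at 78.4%, as means over 4 pairs each. The same means over 3 pairs were 2.96% in Allo 1, 42.1% in Allo 2, 25.4% in Allo 3 and 19.3% in Allo 4. The Syn share was higher in 12 of 12 pairs, and the lowest Syn value (58.7%) lay above the highest Allo value (44.1%). Over all merged regions these libraries held 66.3%, 68.7% and 70.5% (Syn 1 to 3) and 57.3%, 69.3%, 83.5% and 75.2% (Allo 1 to 4). These overall shares include the 50324 regions shared by all 7 libraries, none of which could be chosen. They are therefore not a like base for the held-out shares. The pairs share libraries, so no p-value is given.

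**Figure D2:**
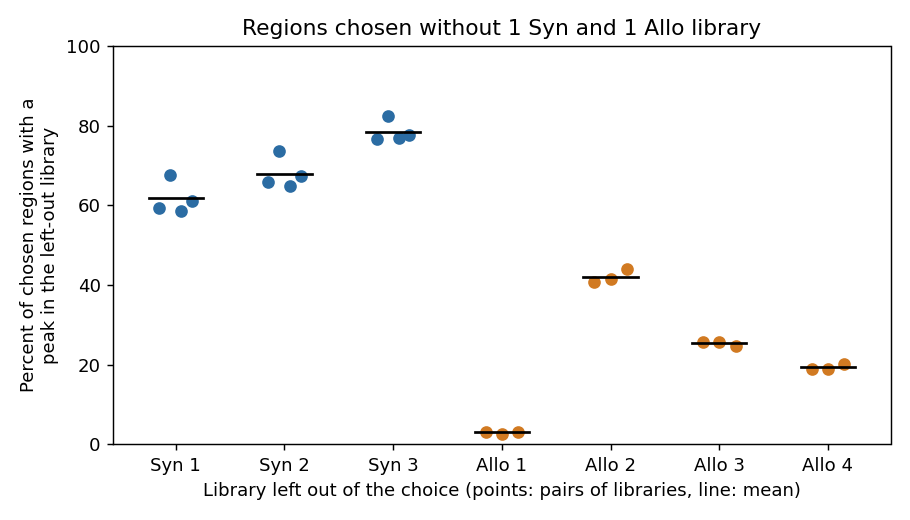
Percent of regions, chosen without 1 Syn and 1 Allo library, that held a peak in the left-out library. Each point is 1 pair of left-out libraries and each line the mean of a library; Syn points (blue) lie between 58.7% and 82.5%, and Allo points (orange) between 2.67% and 44.1%.

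The 3 strongest members lay more than 50 kb from a protein-coding gene. The first by mean rank lay on chromosome 1 (94208659 to 94209357), 156 kb from the nearest protein-coding gene and 126 kb from the nearest shared region, with rank percentiles of 67.1, 50.6 and 69.1 and pileups of 46, 36 and 50 in Syn 1 to 3. The next was on chromosome 13 (36595131 to 36595853), 57.9 kb from a gene, with pileups of 43, 42 and 34. The following one, on chromosome 5 (28999903 to 29001077), was 1175 bp wide and 192 kb from a gene, with pileups of 39, 36 and 34. All 3 were above the median pileup of members in each Syn library and below that of shared regions.

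Of the 20 members with the highest mean rank, 7 had no protein-coding gene within 50 kb. Those with a gene included one 18.7 kb from Nox3, an NADPH oxidase of the inner ear (pileups of 33, 37 and 38), and one 13.4 kb from Usp26, a deubiquitinase gene on chromosome X (41, 30 and 37). A member 38.8 kb from Bach1, a haem-regulated repressor of antioxidant genes, had pileups of 33, 37 and 33. Inside Adam17, the protease that sheds membrane-bound growth factors and TNF, the pileups were 35, 32 and 31. A member 12.5 kb from Mal2, which serves apical transport in epithelial cells, had pileups of 30, 27 and 40. Usp34, another deubiquitinase, was also in this group, as were St7, Gm44812, Rad51b, C9 and Cdkal1. Of the 20, Usp34 had the lowest single pileup (25 in Syn 1).

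Syn-only regions lay farther from genes than the other region sets. A protein-coding gene body held the midpoint of 47.3% of them (95% Wilson interval 44.3 to 50.3), against 54.5% of Allo-only regions (51.7 to 57.3), 54.2% of other regions held by exactly 3 libraries and 59.9% of shared regions. No protein-coding gene lay within 50 kb of 227 members (21.6%, interval 19.2 to 24.2). The same held for 14.96% of Allo-only regions (13.0 to 17.1), 13.4% of the other regions in exactly 3 libraries (12.5 to 14.2), 8.96% of shared regions and 11.3% of all merged regions. Intervals cover counting error only, since regions are not independent replicates. The share was larger for Syn-only than for Allo-only regions in 13 of 13 alternative settings. Without Allo 3 and Allo 4 the difference was small, with 15.8% of Syn-only and 14.99% of Allo-only regions. Regions inside gene bodies lay in genes with a median length, counting a gene once per region, of 126 kb for members. It was 86.7 kb for Allo-only and 57.4 kb for shared regions.

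The share far from genes changed step by step with the number of libraries. Among regions with a peak in all 3 Syn libraries, the share with no gene within 50 kb was 21.6% with 0 Allo libraries, 19.9% with 1, 13.2% with 2, 12.4% with 3 and 8.96% with 4. Among regions with no Allo peak it was 15.3% with 1 Syn library, 17.8% with 2 and 21.6% with 3. Regions with no Syn peak gave 13.8%, 12.3%, 13.6% and 14.96% with 1 to 4 Allo libraries, without such a gradient. Single libraries did not separate the groups in this respect: of all regions a library held, 10.3% to 10.4% were farther than 50 kb from a gene in Syn and 9.59% to 10.5% in Allo.

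**Figure D3:**
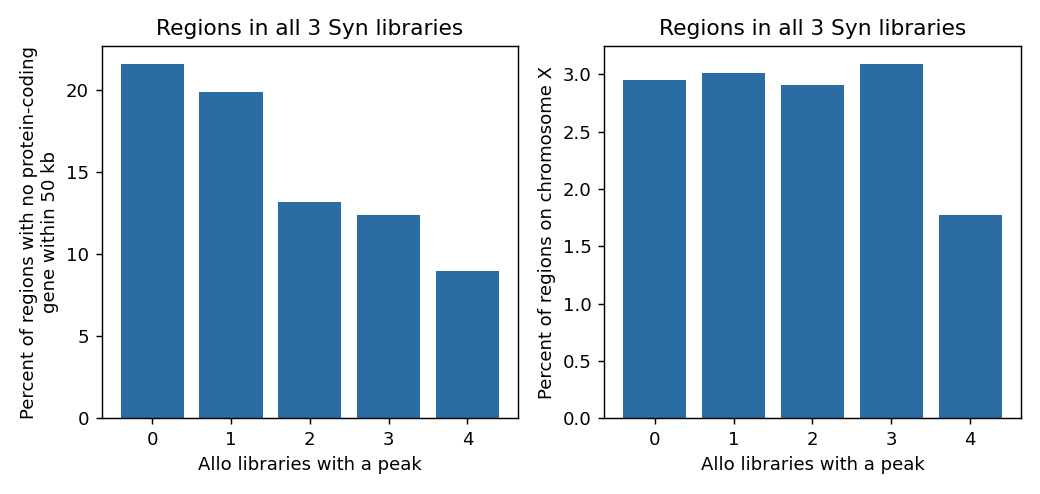
Regions with a peak in all 3 Syn libraries, by the number of Allo libraries that also had one (0 marks the Syn-only regions). The left bars, the percent with no protein-coding gene within 50 kb, fall from 21.6% to 8.96%; the right bars, the percent on chromosome X, lie between 2.91% and 3.09% for 0 to 3 Allo libraries and at 1.77% for 4.

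At gene ends (the start or the end of a protein-coding gene, give or take 1 kb) lay 41 members (3.90%), against 4.82% of Allo-only, 7.10% of other exactly-3 and 26.5% of shared regions. The best ranked after C9 were at Klk1b16, a kallikrein-related protease (mean rank percentile 38.8), at the ends of both Acsl3, which activates long-chain fatty acids, and Utp14b (37.3), at Frmd3 (36.9), at Sec14l3 (31.7) and at Ubr2, a ubiquitin ligase of the N-end rule pathway (29.9). Gene-end members picked by the role of their gene, after their values were seen, included those at Lgals4, the gene of galectin-4 of intestinal epithelium (26.7), Myo6, a motor protein of the brush border (24.9), Sdc1, the gene of syndecan-1 (20.7), and Apoa4, an apolipoprotein of absorptive cells (18.4). Nodal, a ligand of the TGF-beta family, had one at 20.6, and Tm4sf1, a membrane protein of the tetraspanin-like L6 family, one at 26.6. All of these gene-end members ranked below the median shared region.

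Syn-only regions had a somewhat larger median distance to shared regions than other unshared regions did, and a longer tail. The edge-to-edge distance to the nearest region held by all 7 libraries had a median of 8.67 kb (95% interval of order statistics 7.76 to 10.2) with quartiles of 2.68 and 27.1 kb. Allo-only regions had a median of 7.99 kb (7.31 to 9.09), other exactly-3 regions 7.41 kb (7.08 to 7.79) and all other regions not held by 7 libraries 7.55 kb (7.427 to 7.675). Their upper quartiles were 23.0, 20.4 and 20.1 kb. The Syn-only interval overlapped those of Allo-only and other exactly-3 regions and lay above that of all other regions not held by 7 libraries. Within 1 kb of a shared region lay 136 members (12.9%), beside 10.1% of Allo-only and 13.4% of other exactly-3 regions. Within 10 kb lay 550 members (52.3%), beside 55.5% and 57.7%. In the tail, 8.75% of members were more than 100 kb away, compared with 4.14% of Allo-only and 4.80% of other exactly-3 regions.

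**Figure D4:**
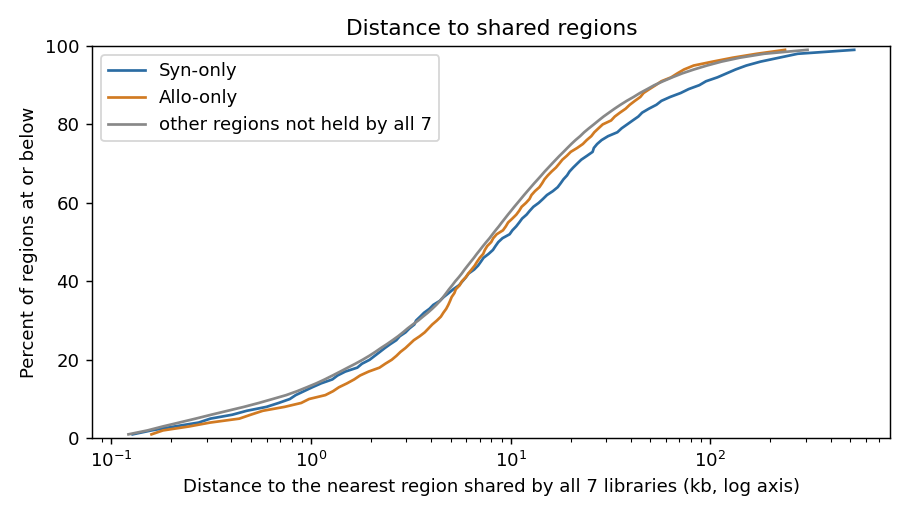
Cumulative percent of regions by distance to the nearest region shared by all 7 libraries (kb, log axis), for Syn-only (blue), Allo-only (orange) and other regions not held by all 7 (grey). The curves run close together up to about the median (8.67, 7.99 and 7.55 kb) and the blue curve then lies to the right, with 8.75% of Syn-only regions beyond 100 kb.

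The 5 most isolated members, named after their distances were seen, had no gene within 50 kb. On chromosome 2 (43295851 to 43296169) a member lay 1549 kb from the nearest shared region, with pileups of 25, 27 and 28 in Syn 1 to 3. On chromosome 15 (30060870 to 30061374) the distance was 1150 kb and the pileups 28, 27 and 31, and on chromosome 14 (83002513 to 83003092) 1143 kb and 28, 32 and 32. The remaining ones were 871 kb away on chromosome X, with pileups of 20, 27 and 28, and 865 kb away on chromosome 2, with 20, 23 and 19. Against the members' medians of 23, 25 and 25, the first 3 were at or above in each library, the one on X was below in Syn 1, and the last was below in all 3.

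Shared regions beside members differed little between the groups. The 550 members within 10 kb of a shared region had 547 different nearest ones, and the median of their mean Syn rank percentile minus mean Allo rank percentile was 0.20, against -0.44 over all shared regions. Of these neighbours 51.4% ranked higher in Syn, and 45.9% of all shared regions did. Other peaks within 1 kb of a member were found for 19.4%, 20.5% and 20.6% of members in Syn 1 to 3 and for 12.0%, 16.3%, 17.2% and 16.1% in Allo 1 to 4. Around Allo-only regions the shares were 11.3% to 12.2% in Syn and 12.1% to 19.5% in Allo.

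Chromosome X carried 31 of the 1051 members (2.95%, 95% Wilson interval 2.09 to 4.16), 5 of the 1183 Allo-only regions (0.423%, 0.181 to 0.986) and 2.03% of all merged regions. Per 1000 merged regions of the chromosome, this is 14.7 Syn-only and 2.37 Allo-only regions on X. The autosomes ranged from 5.80 (chromosome 11) to 13.7 (chromosome 16) for Syn-only and from 8.44 to 15.3 (chromosome 6) for Allo-only regions. Chromosome 11 held 43 Syn-only and 96 Allo-only regions. On X it was the Allo-only count that lay outside the autosomal range by more, at 2.37 against a lowest autosome of 8.44.

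**Figure D5:**
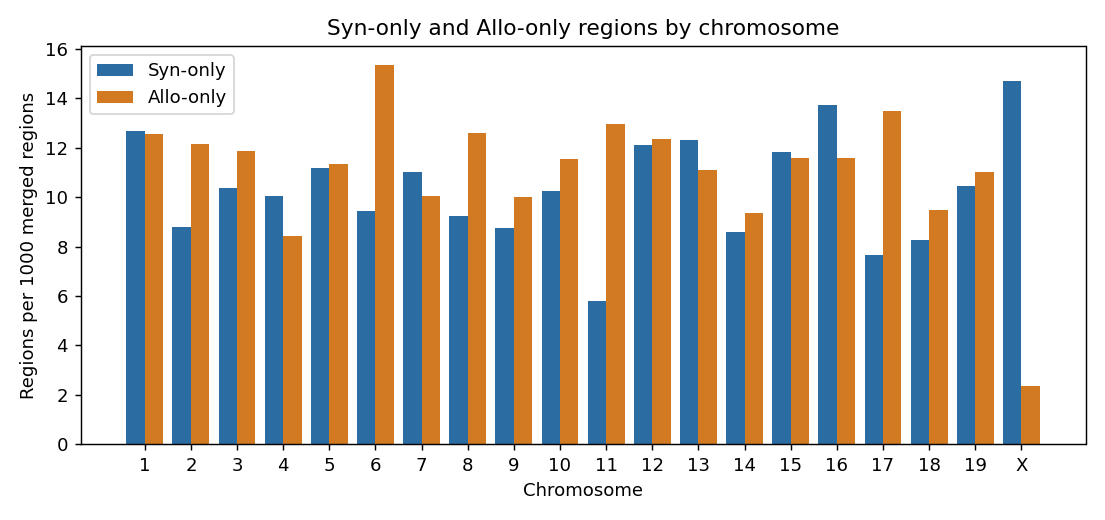
Syn-only (blue) and Allo-only (orange) regions per 1000 merged regions of each chromosome. Chromosome X has 14.7 Syn-only and 2.37 Allo-only regions per 1000, and chromosome 11 the lowest Syn-only value, 5.80.

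The X difference moved with the libraries as a whole. Of all peaks, 2.09%, 2.04% and 2.00% lay on X in Syn 1 to 3 and 1.71%, 1.85%, 1.93% and 1.95% in Allo 1 to 4, so each Syn library exceeded each Allo library. The share of merged X regions a library held, divided by the same share on autosomes, was 1.02, 1.01 and 0.980 in Syn and 0.830, 0.910, 0.943 and 0.961 in Allo. The share on X was also as high in 3-Syn regions with 1, 2 or 3 Allo libraries (3.01%, 2.91% and 3.09%) as in Syn-only regions. The 31 Syn-only regions on X became 54 without Syn 1, 47 without Syn 2, 48 without Syn 3, 53 without Allo 2 and 47 without Allo 4. The 5 Allo-only regions on X became 9 without Syn 1, 10 without Syn 3 and 15 without Allo 2. Without Allo 1, X held 32 Syn-only and 26 Allo-only regions. Without Allo 1 and Allo 2 it held 58 and 126, which turns the direction of the counts. In the other 12 of 13 settings Syn-only regions on X were more numerous. These are counts from sets that change in size as libraries are left out, and the sizes of the Allo-only sets are not given. As a share, Syn-only regions on X made up 2.57% to 3.52% of their set over the 13 settings, beside 2.95% with all libraries.

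The 31 members on X lay between positions 10211949 and 167418100, some of them close together, as near Usp9x and Cask (13033145 to 13880449). The strongest, near Usp26, had rank percentiles of 61.3, 38.0 and 54.1 in Syn 1 to 3. The next lay inside Gpc3, the gene of glypican-3, a cell-surface proteoglycan, with pileups of 23, 32 and 28. A member 37.5 kb from Usp9x, a deubiquitinase gene, had pileups of 30, 26 and 22. Cask, a scaffold kinase of cell junctions, was the gene on X with 2 members. Of the 31 regions, 10 had no protein-coding gene within 50 kb. Genes on X other than Usp26 were named after their values were seen.

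Syn-only regions showed little clustering along chromosomes. A cluster was defined as 3 or more members with gaps of at most 100 kb. By this definition 22 members (2.09%) fell into 7 clusters, the largest of 4, and 27 Allo-only regions (2.28%) fell into 9. The median gap between neighbouring members was 1294 kb, with 21 gaps of at most 10 kb and 7 of at most 1 kb. No stretch of 1 Mb held more than 5 members, or more than 6 Allo-only regions. The share in clusters rose to 6.27% without Syn 1, 5.14% without Syn 2, 3.98% without Syn 3, 7.32% without Allo 2, 3.42% without Allo 3 and 3.22% without Allo 4, each with more regions in the set.

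The cluster with most members was at Ccdc170, a coiled-coil protein gene on chromosome 10, where 4 members lay within 66.4 kb. They were 4 of 7 merged regions in that span, of which 1 was shared by all 7 libraries. Inside the gene body, the member at 4530706 to 4531399 had pileups of 21, 32 and 42 in Syn 1 to 3, the one at 4535158 to 4535635 had 30, 35 and 25, and the one at 4503178 to 4503548 had 23, 28 and 28. The fourth, 13.2 kb outside the gene, had 20, 22 and 23. No library was highest at all 4 sites, Syn 3 being highest at 4530706 and lowest at 4535158.

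Another cluster held 3 members within 4.96 kb on chromosome 5, at 78.4 to 83.0 kb from Adgrl3, an adhesion receptor gene also known as latrophilin-3. They were the 3 merged regions of that span. Their mean rank percentiles were 2.04, 32.3 and 2.90. In Gm44812 on chromosome 7, a predicted protein-coding gene, 3 members within 12.5 kb were 3 of 4 merged regions, and the middle one (70564990 to 70565799) had pileups of 35, 31 and 38. Both spans lacked a region shared by all 7 libraries.

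The other 4 clusters lay on chromosomes 1, 8, 10 and 12. At Slc10a2, the bile acid uptake transporter of the ileum on chromosome 8, 3 of 11 regions within 126 kb were members, and the strongest, 24.3 kb from the gene, had pileups of 25, 35 and 28. On chromosome 10, 3 members in 44.1 kb lay at Utp20, a ribosome assembly factor, and near Slc5a8, a transporter of short-chain fatty acids, with pileups of 42, 33 and 40 at the strongest. At Mogat1, a monoacylglycerol acyltransferase of chromosome 1, and Utp14b, 3 of 10 regions within 124 kb were members. The last cluster, near Dact1, an inhibitor of Wnt signalling on chromosome 12, had 3 of 8 regions within 80.5 kb.

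Genes with several Syn-only regions were mostly long genes with many regions. Of 17033 protein-coding genes with any merged region assigned (inside the body or within 50 kb), 754 had a member (4.43%), 59 had 2 or more and 7 had 3 or more. Allo-only regions gave 936 genes, of which 65 had 2 or more and 5 had 3 or more. The 59 genes had a median length of 129.8 kb and a median of 17 merged regions. Of these genes 37 were longer than 100 kb, while the rest included short ones such as Cldn8 (2.36 kb). Genes with 1 member had medians of 65.4 kb and 9 regions, and genes with any region 22.3 kb and 3 regions. Of the 754 genes, 77 also had an Allo-only region, which is 10.2% of the genes with Syn-only and 8.23% of those with Allo-only regions. The count of 59 rose to 146 without Syn 1, 115 without Syn 2, 95 without Syn 3, 177 without Allo 2, 92 without Allo 3 and 90 without Allo 4. The count of 7 rose to 28 without Syn 1, 18 without Syn 2, 37 without Allo 2 and 13 without either Allo 3 or Allo 4.

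Auts2 had the most members, 5 of its 77 regions. It encodes a component of a Polycomb complex and spans 1106 kb of chromosome 5. The mean rank percentiles of its members ran from 13.5 to 35.8, and the strongest (132039471 to 132039907) had pileups of 26, 29 and 30 in Syn 1 to 3. Macrod2, which removes ADP-ribose from proteins, had 4 of 44 regions over 1998 kb of chromosome 2. Its strongest member had pileups of 38, 50 and 45 and lay 0.302 kb from a shared region. Of all genes with 3 or more members, Ccdc170 had the largest fraction, 4 of 7.

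Rad51b, a gene of homologous recombination, had 3 of 76 regions. One of them (chromosome 12, 79816277 to 79816663) was among the 20 strongest, with pileups of 41, 36 and 39 and rank percentiles of 51.2, 41.6 and 49.5. Fut8, which adds core fucose to N-glycans, had 3 of 23 regions, and 2 of these, inside the gene, lay 141 and 139 kb from a shared region. Tenm4, a teneurin adhesion protein, had 3 of 14 regions with mean rank percentiles of 3.98, 11.9 and 17.4, and one of them was 621 kb from the nearest shared region. Tenm4 thus held weak members, all below the median rank of the set (17.8).

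Of the 52 genes with exactly 2 members, a few are given here that were picked by their role after their values were seen. Pparg, a nuclear receptor of lipid metabolism, had members with pileups of 29, 27 and 27 and of 22, 27 and 28. Cftr, the chloride channel of crypt cells, had one with 26, 33 and 25 and one with 16, 21 and 27. Car12, a carbonic anhydrase, and Slc4a4, a bicarbonate transporter, each had 2 as well. The pair at Cldn8, a tight-junction claudin, was weak, with mean rank percentiles of 3.41 and 3.78. Cdkal1 had 2 Syn-only and 2 Allo-only regions, and Zbtb20, a transcriptional repressor, 2 and 1.

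Signalling pathways of the stem cell niche had 1 to 4 members each, set here beside the 1.01% Syn-only over all merged regions. Of the Wnt list, 4 of 293 regions (1.37%) were Syn-only and 2 Allo-only. The members were near the receptor gene Fzd5 (mean rank percentile 30.8), near the target Ccnd1 (14.99), and inside and near Lef1, a transcription factor of the pathway (14.98 and 11.3). For Lef1 the pileups were 17, 23 and 24 inside the gene and 23, 26 and 37 beside it, lowest in Syn 1 at both. Of the Notch list, 4 of 189 regions (2.12%) were Syn-only and 1 Allo-only: 2 in the coactivator Maml3 (38.8 and 11.4), 1 near the ligand Jag1 (34.8) and 1 in the receptor Notch2 (24.7). Of the BMP and TGF-beta list, 4 of 234 regions (1.71%) were Syn-only and 2 Allo-only, and all 4 lay in or near receptor genes, Bmpr1b (32.4), Acvr1 (27.3, with a weaker one in the same gene) and Bmpr2 (11.6). The YAP and regeneration list had 1 of 137 regions (0.730%), near the factor Tead1 (16.6), and 2 Allo-only.

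Lists of differentiated cells differed in number. Absorptive enterocyte genes had 5 Syn-only of 165 regions (3.03%) and 1 Allo-only region. The members were at Apoa4 (18.4), near Apob, the structural protein of chylomicrons (17.9), at Rbp2, a retinol-binding protein (13.5), at Mme, the peptidase neprilysin (9.90), and near Cyp3a11, a drug-metabolising cytochrome (9.21). All of these were weak peaks beside shared regions, though Apoa4 and Apob ranked just above the members' median of 17.8. At Apoa4 the pileups were 35, 28 and 29 in Syn 1 to 3, and at Rbp2 20, 26 and 16. Goblet and Paneth cell genes had 1 of 74 (Fcgbp, 10.1) with 1 Allo-only, enteroendocrine and tuft cell genes 1 of 114 (Tac1, 21.2) with 2 Allo-only, and epithelial identity genes 1 of 268 (0.373%) with 5 Allo-only. The stem cell markers had 2 of 281 (0.712%), near Ephb2 (12.0) and Rgmb (10.5), and 3 Allo-only. Leukocyte markers had 0 Syn-only and 0 Allo-only of 20 regions, and endothelial and stromal markers 1 (Col1a2, 24.3) and 1 of 46. The whole set had 1.01% Syn-only, so most of these shares rest on counts too small to read an order from.

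Immune lists had a Syn-only share near or below the 1.01% over all merged regions, on counts too small to tell them apart. Interferon response genes had 1 of 141 (0.709%), in Irgm1, an interferon-induced GTPase, with pileups of 59, 68 and 72 in Syn 1 to 3. Despite these pileups its rank percentiles were 17.2, 25.6 and 32.1, at a fold of 2.26, 2.38 and 2.59. Allo-only regions of the interferon response genes numbered 18 (12.8%), against 1.14% over all merged regions. MHC class II genes had 0 of 58 and 4 Allo-only regions (6.90%). DNA repair and p53 genes had 3 of 149 (2.01%), all 3 assigned to Rad51b, and 0 Allo-only. The cell cycle list had 3 of 154 (1.95%) and 3 Allo-only. Of these Syn-only regions 2 belonged to Cdkal1, which encodes a tRNA-modifying enzyme, and 1 lay near the kinase gene Cdk6 (41.1). The list of long neuronal and adhesion genes had 15 of 454 (3.30%) in 7 genes and 6 Allo-only, of which Auts2 and Macrod2 gave 9 of the 15. Others included Csmd3 (33.9), Wwox (15.1 and 12.6), Cdh13 (7.36) and Immp2l (3.77).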

How the data were processed

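Omni-ATAC-seq peak lists of 7 libraries (Syn 1 to 3, Allo 1 to 4, grouped by sample title) were used. Per the submitters' processing notes, the build was mm10 and the tools included MACS2, MACS3, Bowtie2 and Trim Galore, with no versions or roles. The authors deposited 1 list per library, in 10 columns, which give each peak's score, summit, fold enrichment, −log10 p-value and −log10 q-value. Peaks were thus called per library, not on pooled samples. Calling threshold and read extension are not given in the sources used here; in Allo 3 and Allo 4 peaks are named by another scheme. Values per peak are the authors' own. Ranks were taken within a list, while pileups, which were not scaled for depth here, are also set side by side across lists.

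Computed here were the merging, rank percentiles and the whole pileup that solves the deposited fold and −log10 p (tolerance 0.001, 100% solved). Genes were the 21631 protein-coding genes of RefSeq GRCm38.p6, without strand. A region went to the gene body holding its midpoint (the shortest), otherwise to the nearest gene within 50 kb. Of 310 list entries 307 matched. The promoter table holds 32619 windows. Region sequences, for which a genome would be needed, were not used here, so the planned motif search in members was not run. The members, lists and alternatives were chosen with earlier results of these data known. Named were genes with 3 or more members, the 20 best ranked members, genes of the largest clusters (6 were planned, and ties made it 7), up to 4 genes per list (7 in the list of long genes, 5 for enterocytes), and gene-end genes by rank. Some genes that this rule allows are not reported here. Merging, counting, pileup and distances were tested on simulated data. Alternatives tried were peaks with −log10 q from 5 up, lists of the shortest length, 501 bp windows, 50% cover, other gene, cluster and shared thresholds, and leaving out libraries. Python 3.11.15, numpy 2.4.6, scipy 1.17.1, pandas 2.3.3 and matplotlib 3.10.9 were used.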

Additional observations from a re-analysis of the deposited data

How the results depend on the processing

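No test was made of the Syn-only set, so the values below are descriptions. No paired analysis was possible because the results come from no test; the replicate numbers that Syn and Allo share are tied to no batch or day in the labels. Leaving out 1 library at a time gave 1084 to 2021 Syn-only regions, 63 to 177 genes with 2 or more, 2.86% to 7.32% in clusters, a median distance of 7.45 to 8.91 kb, 47.1% to 49.8% in gene bodies, 4.06% to 5.10% at gene ends, 19.6% to 21.7% farther than 50 kb from a gene and 2.62% to 3.52% on X. Without Allo 3 and 4 together these were 2770 regions, 276 genes, 11.4%, 6.58 kb, 50.9%, 6.86% and, far from genes, 15.8%. Without Allo 1 and 2 they were 2256 regions, 204 genes, 9.57% in clusters and 7.31 kb. Fewer libraries make the rule easier to pass. A −log10 q of at least 5 gave 3.38% in clusters and 5.49% at gene ends. Lists of the shortest length gave 10.9 kb and 50.5% in gene bodies. Peaks covering 50% of a region gave 108 genes, 5.11% in clusters, 12.5 kb and 6.59% at gene ends. Counting gene bodies alone gave 35 genes, gaps of at most 50 or 200 kb gave 1.24% or 5.52% in clusters, regions shared by at least 6 libraries gave 7.23 kb, and 500 bp windows gave 2.28% at gene ends. The share on X stayed within its counting interval in 13 of 13 alternatives. The held-out shares, run with 3 of them, were 68.4% to 70.7% in Syn and 21.8% to 23.3% in Allo. The X counts and the Allo-only share far from genes under all settings were chosen after seeing the data. Depth is unknown, so a missing peak may lie just under the threshold.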
